A study of Oryza sativa Indica Group with 27 samples.

Results

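The 5 genes described here encode rice transcription factors of the AP2/ERF class: OsERF71 (Os06g0194000), OsAP37 (Os01g0797600), OsAP59 (Os02g0654700), OsERF103 (Os02g0764700) and OsEREBP1 (Os02g0782700). They were picked by name and gene ID, not by a threshold on their values, but with earlier results of these data known, and all 5 were found among the 37869 genes of the table. The study names OsAP37, OsAP59 and OsERF103 in a gene module chosen on WT and erf71 libraries, and places OsERF71 in the same module. The direction of these genes in these plants is thus not independent evidence. The libraries came from whole seedlings at the three-leaf stage, taken 0, 1 and 6 h after the nutrient solution had been removed (h after treatment, HAT). WT was Nipponbare without a transgene, erf71 was Nipponbare overexpressing OsERF71 (labelled as an AP2 transgenic), and Vandana was the third plant, an untransformed drought-tolerant indica variety. The plant age, the promoter that drives the transgene, the number of transgenic lines and whether seedlings were pooled are not given in the sources used here. Of the 27 libraries of the series, 9 mRNA libraries were used, 1 for each of 3 plants and 3 time points. No condition had a replicate, so every difference below compares single libraries, carries no error and has no test.

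AP2/ERF factors are plant-specific regulators that share the AP2/ERF DNA-binding domain. Many bind the GCC box or dehydration-responsive elements in promoters, and their genes are often induced by ethylene, pathogens, drought or salt. Overexpression of OsERF71 has been linked to drought tolerance and to changes in root cell walls, and OsAP37 and OsAP59 are known from rice plants in which their overexpression altered drought tolerance. OsEREBP1 is known as a target of a rice mitogen-activated protein kinase.

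Levels were in FPKM, which the authors obtained with Cufflinks and which is scaled to transcript length and library size. No read counts accompany them, so the depth behind a value is unknown. The FPKM of all genes summed to between 702034 and 857472 per library. The Vandana library at 6 HAT stood apart, with 12398 genes listed at 0 against 7323 to 7916 in WT and erf71 and 9101 to 9411 in the other Vandana libraries. The dehydration-induced gene Dip1 stood at 92.6, 329 and 2583 FPKM in WT at 0, 1 and 6 HAT, and at 86.8, 317 and 3354 FPKM in erf71. In Vandana it stood at 383, 101 and 2275 FPKM, so that the libraries labelled 0 and 1 HAT ran against the order seen in the other plants. The 3 further genes of the dehydration list (Os11g0454300, Os05g0542500 and Os01g0348900) were far higher at 6 HAT in every plant but did not share the course of Dip1 before that. Over the first hour in WT they went from 67.1 to 65.8, from 59.2 to 76.6 and from 711 to 339 FPKM, and between the Vandana labels from 81.0 to 37.4, from 52.8 to 31.8 and from 413 to 432 FPKM. Across genes, the Vandana library labelled 0 HAT correlated more with WT at 1 HAT (r = 0.740) than with WT at 0 HAT (r = 0.694), and the library labelled 1 HAT more with WT at 0 HAT (r = 0.734) than at 1 HAT (r = 0.694). Genes are not replicates, the labels were kept as given, and no Vandana direction over the first hour is read as a response to dehydration. A list of 5 leaf genes, none of them at 0, summed to between 15726 and 35211 FPKM at 0 and 1 HAT and to between 2913 and 8395 FPKM at 6 HAT. The sum hid a gene that went the other way. Os09g0346500 had its highest level in Vandana at 6 HAT (6288 FPKM), where the other leaf genes were lower than at 0 HAT. The study names Os12g0291100 in a photosynthesis module that fell under dehydration, so the sum does not measure leaf tissue alone. A list of 3 root genes, also without a 0, summed to between 169 and 619 FPKM at 0 and 1 HAT and to between 71.8 and 145 FPKM at 6 HAT. The part of these shifts in the results below was not tested. In whole seedlings, fewer cells of a type and less RNA per cell cannot be told apart.

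The 5 genes fell into a pair that was abundant in nearly every library, OsERF71 and OsEREBP1, and 3 whose levels moved over a wide range, OsAP37, OsAP59 and OsERF103. OsERF71 was measured at 133, 122 and 187 FPKM in WT at 0, 1 and 6 HAT, at 201, 172 and 264 FPKM in erf71, and at 138, 159 and 50.8 FPKM in Vandana. It had the highest level of the 5 genes in 7 of 9 libraries, was second to OsAP59 in WT at 1 HAT and was the lowest of them in Vandana at 6 HAT. From 93.9 to 98.9% of all listed genes lay below it.

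OsEREBP1 was measured at 108, 94.8 and 169 FPKM in WT, at 109, 119 and 184 FPKM in erf71, and at 112, 89.0 and 90.4 FPKM in Vandana. Its highest library was only 2.07-fold above its lowest, the narrowest range of the 5 genes. The level of OsERF71 was 1.10 to 1.86 times that of OsEREBP1 in 8 libraries and 0.562 times in Vandana at 6 HAT.

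OsAP37 was measured at 26.0, 77.0 and 128 FPKM in WT, at 29.8, 51.7 and 139 FPKM in erf71, and at 88.1, 24.3 and 203 FPKM in Vandana. In each plant its highest level was at 6 HAT. OsAP59 was measured at 9.04, 193 and 41.7 FPKM in WT, at 6.03, 18.3 and 37.5 FPKM in erf71, and at 103, 9.98 and 84.4 FPKM in Vandana. Its WT level at 1 HAT was the highest of its 9 values, and only there did it exceed the level of OsERF71 among the WT and erf71 libraries.

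OsERF103 was listed at 0, 17.3 and 42.9 FPKM in WT, at 0.405, 3.73 and 47.6 FPKM in erf71, and at 2.76, 0 and 141 FPKM in Vandana. It was the lowest of the 5 genes at 0 and 1 HAT in all 3 plants and rose above at least 1 other member in each 6 HAT library. With single libraries no spread is known, so neighbouring positions in these orders cannot be called different.

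**Figure D1:**
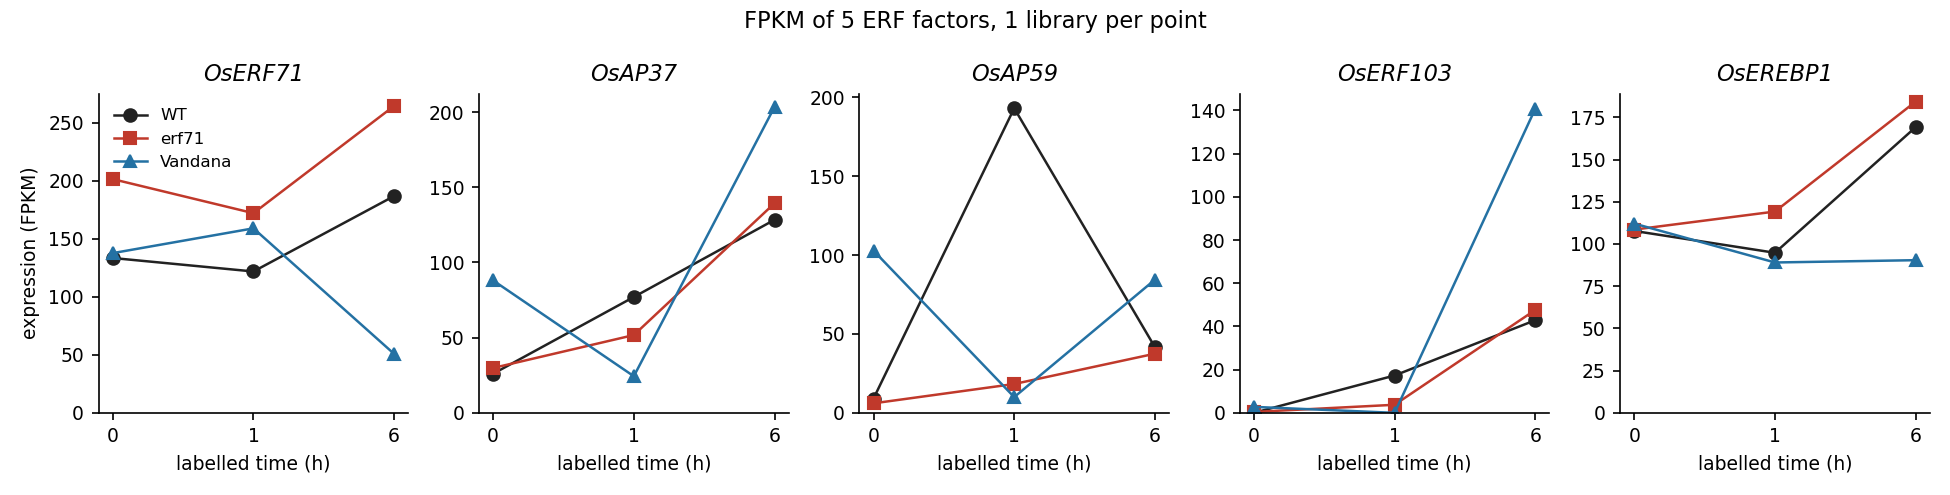
Level of each ERF gene in FPKM (linear axis) against h after treatment for WT, erf71 and Vandana, 1 library per point, with values listed at 0 drawn at the lower edge. OsERF71 and OsEREBP1 do not go below 89.0 FPKM except for OsERF71 in Vandana at 6 HAT (50.8 FPKM), whereas OsAP59 in WT moves from 9.04 to 193 and back to 41.7 FPKM.

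The time course shows how the levels of these genes moved after the nutrient solution was removed. The only untreated library of each plant was the one labelled 0 HAT. A response to water loss apart from time of day or handling was therefore not tested. In WT, 3 of the 5 genes rose at least 2-fold from 0 to 1 HAT and none fell, where 10.5% of all tested genes rose and 12.3% fell. A gene was tested when its level reached 1 FPKM in either of the libraries set against each other, and log2 changes were taken after 0.1 FPKM was added to both. OsAP59 rose 21.4-fold (log2 change 4.40), a rise that 1.51% of tested genes matched or passed. OsAP37 rose 2.96-fold (log2 change 1.56), a size that 6.90% of genes matched or passed. OsERF103 went from a listed 0 to 17.3 FPKM, for which no fold is given. Here and below a fold is the plain ratio of the FPKM values. OsERF71 and OsEREBP1 had log2 changes of -0.13 and -0.18, close to the median of all tested genes (-0.20). Rises made up 46.2% of all genes past 2-fold here, 57.3% after scaling by median ratio and 58.0% after scaling to an equal sum, and the sign of the small change of OsERF71 turned with these scalings (0.04 and 0.06), as did that of OsEREBP1 with the latter.

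In erf71, 2 of the 5 genes rose at least 2-fold from 0 to 1 HAT and none fell, where 5.72% of all tested genes rose and 6.03% fell. OsERF103 rose from 0.405 to 3.73 FPKM, with a log2 change of 2.92 that became 1.75 when 1 FPKM was added in place of 0.1. OsAP59 rose 3.03-fold (log2 change 1.59). Both ended the hour far below their WT levels, at 3.73 FPKM for OsERF103 and 18.3 FPKM for OsAP59. OsAP37 had a 1.73-fold ratio, below the threshold, yet only 7.68% of tested genes moved as far up. OsERF71 and OsEREBP1 had log2 changes of -0.23 and 0.14.

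Between 1 and 6 HAT the WT and erf71 libraries differed in which way OsAP59 went. In WT it fell 4.64-fold (log2 change -2.21), the only 1 of the 5 genes to fall at least 2-fold, where 30.2% of all tested genes fell. In erf71 it rose 2.05-fold (log2 change 1.03), together with OsAP37 (2.70-fold) and OsERF103 (12.8-fold), where 13.7% of all tested genes rose and 29.3% fell. In WT over the same interval OsERF103 alone rose past the threshold (2.48-fold), where 12.3% of all tested genes rose. Rises made up 29.0% of all genes past 2-fold in that interval, and 40.4% after upper quartile scaling. OsERF71 had nearly the same ratio in both plants, 1.53-fold in WT and 1.54-fold in erf71.

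Over the whole 6 h the same 3 genes were higher in both plants. In WT 14.6% of all tested genes rose and 37.3% fell, and in erf71 14.9% rose and 34.8% fell. Rises thus made up 28.2 and 29.9% of all genes past 2-fold, and 40.6 and 40.2% after median ratio scaling. OsAP37 rose 4.94-fold in WT and 4.67-fold in erf71. OsAP59 rose 4.61-fold in WT and 6.22-fold in erf71. OsERF103 rose in erf71 from 0.405 to 47.6 FPKM, with a log2 change of 6.56 that became 5.11 with 1 FPKM added, and in WT it went from a listed 0 to 42.9 FPKM. OsERF71 (log2 change 0.49 in WT and 0.39 in erf71) and OsEREBP1 (0.65 and 0.76) lay under the threshold, while the medians of all tested genes were -0.60 and -0.53.

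**Figure D2:**
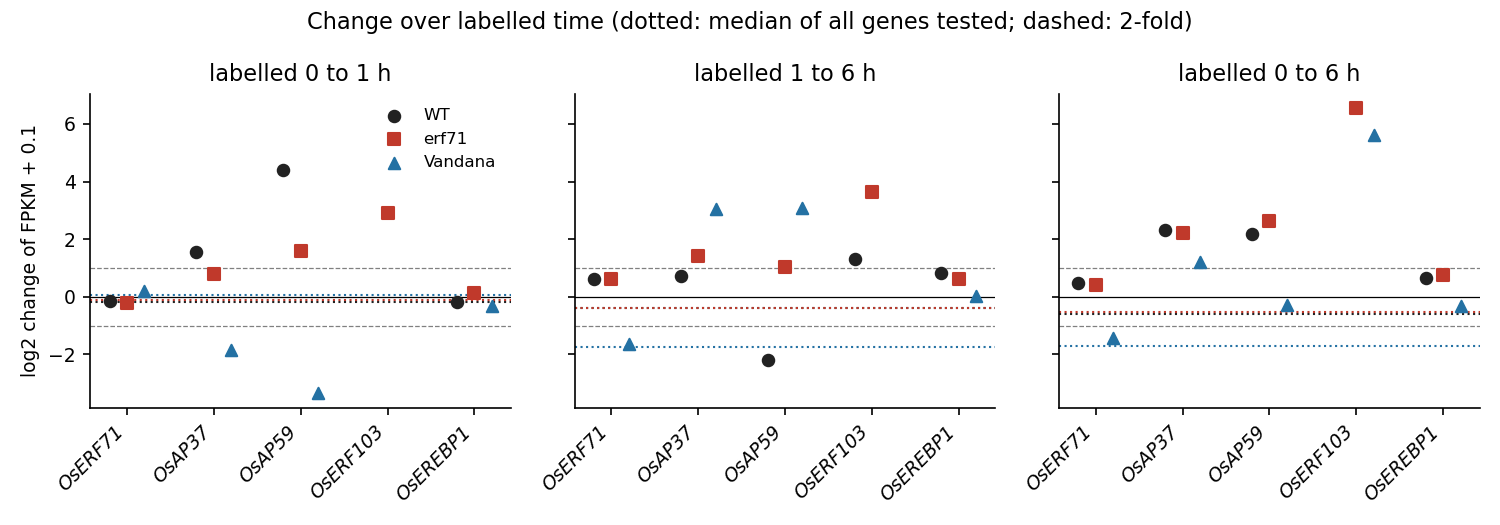
Log2 change of each ERF gene between time points in WT, erf71 and Vandana, after 0.1 FPKM was added, with changes from or to a library listed at 0 left out, dotted lines at the median of all genes and dashed lines at 2-fold. OsAP59 moves by 4.40 and then -2.21 in WT but by 1.59 and then 1.03 in erf71, while OsERF71 and OsEREBP1 in these plants stay within 2-fold.

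The comparison of erf71 with WT sets the transgenic plant beside WT at matched times, and OsERF71 is the check of the labels. With single libraries, the transgene cannot be told apart from other differences between the plants or libraries. Its level in erf71 was 1.51-fold that of WT at 0 HAT (201 against 133 FPKM), 1.41-fold at 1 HAT (172 against 122 FPKM) and 1.42-fold at 6 HAT (264 against 187 FPKM). It was thus higher in erf71 at 3 of 3 time points, and under every scaling tried the log2 ratio lay between 0.41 and 0.65. None of these ratios reached 2-fold, and at 0, 1 and 6 HAT 9.70, 19.5 and 14.1% of tested genes were as far or farther up in erf71. Among genes of at least 50 FPKM the shares were 6.29, 21.7 and 11.9%. OsEREBP1 was also higher in erf71 at 3 of 3 time points. The ratios of OsERF71 thus lay in the direction of the label but did not set it apart from many other genes. The level of a gene does not separate transcripts of the transgene from those of the resident gene.

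At 0 HAT none of the 4 tested genes differed 2-fold between erf71 and WT, where 5.2% of all tested genes were higher and 6.52% lower in erf71. OsERF103, at 0.405 FPKM in erf71 and a listed 0 in WT, was below the level required. OsEREBP1 and OsAP37 had log2 ratios of 0.01 and 0.20, and OsAP59 had -0.58.

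At 1 HAT 2 of the 5 genes were at least 2-fold lower in erf71 and none higher, where 10.3% of all tested genes were lower and 8.22% higher. OsAP59 stood at 18.3 FPKM in erf71 against 193 FPKM in WT, 10.6-fold lower, and 1.48% of tested genes were as far down. OsERF103 stood at 3.73 FPKM against 17.3 FPKM, 4.63-fold lower, and 2.91% of tested genes were as far down. OsAP37 had a log2 ratio of -0.57 (51.7 against 77.0 FPKM), OsEREBP1 0.33 and OsERF71 0.50. Of tested genes, 19.5% were as far down as OsAP37, 27.3% as far up as OsEREBP1 and 19.5% as far up as OsERF71. The 3 genes with wide ranges, a group named from the same data, had ratios below 0 and the other 2 above 0. In the same pair of libraries the 3 dehydration genes other than Dip1 were at least 2-fold higher in erf71, at 175 against 65.8, 154 against 76.6 and 776 against 339 FPKM, while Dip1 stood at 317 against 329 FPKM. The 5 leaf genes summed to 15726 FPKM in erf71 and 25485 FPKM in WT, and the 3 root genes to 273 and 169 FPKM, having stood at 532 and 619 FPKM at 0 HAT. The part of these differences in the ERF values was not tested.

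At 6 HAT none of the 5 genes differed 2-fold, where 5.17% of all tested genes were higher and 6.22% lower in erf71. Their log2 ratios were -0.15 for OsAP59, 0.12 for OsAP37 and OsEREBP1, 0.15 for OsERF103 and 0.50 for OsERF71. Of the 3 time points, OsAP59 differed 2-fold between these plants only at 1 HAT. OsAP59 moved by 2.82 log2 units less in erf71 than in WT from 0 to 1 HAT, which 2.89% of genes matched or passed in that direction, and by 3.24 log2 units more from 1 to 6 HAT, which 1.81% matched or passed. Both rest on the same pair of libraries at 1 HAT.

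Other stress-linked transcription factors of the study showed how far this went beyond the ERF genes. The list held 15 genes, among them the NAC factor SNAC1, the zinc finger factors ZFP182 and ZFP15, OsWRKY45, the jasmonate repressor OsJAZ2 and the bHLH factor OsbHLH148. The study chose it with these samples in view, so its direction is not independent evidence. Part of the list, with OsERF103, was named by the study after RT-PCR. There these genes rose in both plants over the first hour, but less in erf71. In the libraries used here 2 of them did not show this. OsC3H32 had a log2 change of 0.22 in both plants, and Os04g0676700 had 0.83 in WT and -0.19 in erf71. The others rose in both plants and less in erf71, although ONAC039 differed little (0.34 and 0.25). At 1 HAT 8 of 14 tested genes were at least 2-fold lower in erf71 and none higher, with a median log2 ratio of -1.13 against 0.00 over all genes, of which 10.3% were lower and 8.22% higher. OsbHLH148 had 38.5 FPKM in erf71 and 443 FPKM in WT, and SNAC1 had 117 and 491 FPKM. OsWRKY45 lay just past the threshold with 105 and 214 FPKM, and OsNAC5 (104 and 135 FPKM) lay inside it. At 6 HAT no gene of the list differed 2-fold (median 0.22), where 5.17% of all tested genes were higher and 6.22% lower. At 0 HAT 2 were higher in erf71, where 5.2% of all genes were higher.

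The list rose over the first hour by a median log2 change of 2.20 in WT, with 9 of 14 genes up and none down, and by 0.53 in erf71, with 5 of 14 up and none down. Over all tested genes 10.5% rose and 12.3% fell in WT, and 5.72% rose and 6.03% fell in erf71. After 6 h 12 of its genes were up and none down in each of the 2 plants, with medians of 2.88 in WT and 2.48 in erf71, where 14.6 and 14.9% of all genes rose and 37.3 and 34.8% fell. OsJAZ2 went from 15.5 to 374 FPKM over the first hour in WT, whereas in erf71 it went from 11.1 to 83.3 FPKM. OsAP59 and OsERF103, like 8 genes of this list, were at least 2-fold lower in erf71 at 1 HAT and within 2-fold at 6 HAT, but the study drew them from the same module as the list.

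A further list held the 23 genes that the study's cascade tree joins directly to OsERF71. The tree holds edges of weaker correlation that were added to the network, so not all of these genes are neighbours of OsERF71 in the module itself. The network came from public microarrays and was then filtered on mRNA libraries of WT and erf71, at the times used here and others. The list was thus chosen in part on these samples, and the correlation of its genes with OsERF71 is only a description. Over 9 libraries the median r was 0.83 (range -0.49 to 0.94), and over the 6 WT and erf71 libraries it was 0.80 (range 0.62 to 0.94). None of the 23 genes differed 2-fold between erf71 and WT at 0, 1 or 6 HAT, where 5.2, 8.22 and 5.17% of all tested genes were higher and 6.52, 10.3 and 6.22% lower. Their median log2 ratios were 0.08, 0.28 and 0.14, and 13, 20 and 19 of the 23 were higher in erf71. OsERF71 itself lay above these medians at each time, at 0.59, 0.50 and 0.50.

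None of the 23 linked genes moved 2-fold over the first hour in WT, where 10.5% of all genes rose and 12.3% fell, or in erf71, where 5.72% rose and 6.03% fell. After 6 h 5 were up in WT and 6 in erf71, none were down in these plants, and the medians were 0.53 and 0.77, where 14.6 and 14.9% of all genes rose and 37.3 and 34.8% fell. Scaling moved these counts to 10 in WT and 13 in erf71 with median ratios, and to 10 in both with upper quartiles.

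**Figure D3:**
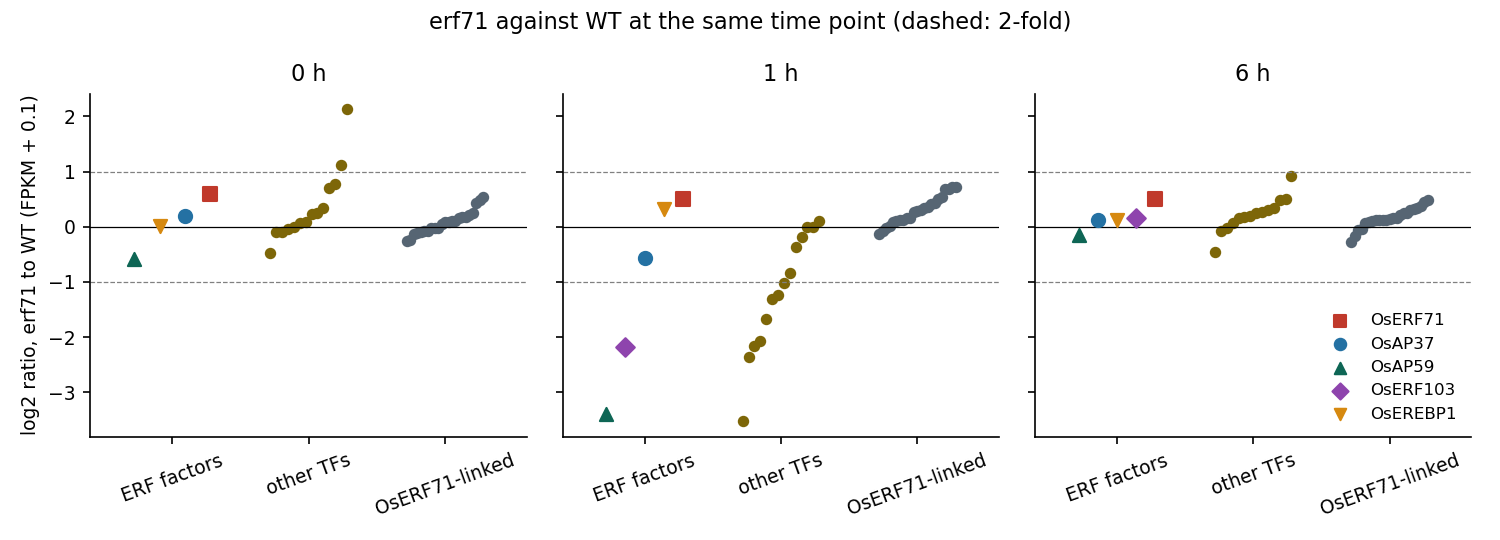
Log2 ratio of erf71 to WT at 0, 1 and 6 HAT for the ERF genes, the other transcription factors of the study and the genes linked to OsERF71, 1 point per gene, dashed lines at 2-fold. At 1 HAT OsAP59 (-3.39) and OsERF103 (-2.18) lie among the lowest transcription factors, while the linked genes stay inside 2-fold at every time.

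Vandana gives the same genes in another rice background, read against the Nipponbare genome like all libraries. In the library labelled 0 HAT 3 of the 5 genes were at least 2-fold above WT and none below, where 12.8% of all tested genes were higher and 20.2% lower. They were OsAP59 (103 against 9.04 FPKM), OsAP37 (88.1 against 26.0 FPKM) and OsERF103 (2.76 FPKM against a listed 0). In the library labelled 1 HAT the same 3 genes were at least 2-fold below WT and none above, where 19.4% of all tested genes were lower and 13.8% higher. From the first label to the second these 3 fell within Vandana, where 8.78% of all tested genes fell and 5.89% rose. OsAP59 fell 10.3-fold and OsAP37 fell 3.62-fold. The other transcription factors of the study went the same way, with 10 of 14 down and none up, as did Dip1.

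Vandana at 6 HAT was the only library in which OsERF71 was far below its usual level. It fell 3.13-fold from the library labelled 1 HAT and 2.71-fold from the library labelled 0 HAT. In these intervals 61.7 and 61.4% of all tested genes fell at least 2-fold while 15.9 and 14.8% rose, and the median log2 changes of all genes were -1.76 and -1.71. The fall of OsERF71, at -1.64 and -1.44, was thus no larger than that of the median gene over all levels. Among genes of at least 50 FPKM in either library, 30.3 and 32.9% fell as far or farther. After median ratio scaling the fall of OsERF71 did not reach 2-fold, with -0.56 and -0.34. That scaling also moved the share of rises among all genes past 2-fold from 20.5 to 38.8% and from 19.4 to 39.2%. Against WT at 6 HAT the log2 ratio of OsERF71 was -1.88, where the median gene had -1.24, 54.1% of all tested genes were lower and 17.2% higher. Among genes of at least 50 FPKM, 18.0% were as far down. Rises made up 24.1% of the genes past 2-fold in that comparison and 41.1% after median ratio scaling.

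OsERF103 and OsAP37 had their highest levels in Vandana at 6 HAT. OsERF103 reached 141 FPKM, 3.28-fold that of WT at 6 HAT. OsAP37 reached 203 FPKM. OsEREBP1 had 90.4 FPKM, the lowest but 1 of its 9 values, with a log2 change of 0.02 from the library labelled 1 HAT. OsAP59 stood at 84.4 FPKM, above 41.7 FPKM in WT and 37.5 FPKM in erf71 but below the Vandana library labelled 0 HAT (103 FPKM). Of the genes linked to OsERF71, 12 of 23 were down and 3 up from 0 to 6 HAT, where 61.4% of all genes fell and 14.8% rose, and their median log2 change of -1.02 lay above that of all genes. The balance turned with scaling, to 3 down and 6 up with median ratios and 4 down and 6 up with upper quartiles.

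Likeness of pattern was measured with Pearson's r of log2(FPKM + 0.1) over the 9 libraries, which share plants, time points and the Vandana library at 6 HAT. Among the members, OsAP37 and OsERF103 were most alike (r = 0.96), followed by OsAP37 and OsAP59 (0.76) and by OsAP59 and OsERF103 (0.73). OsERF71 and OsEREBP1 had r = 0.66. OsERF71 had r = -0.32 with OsAP37, -0.42 with OsAP59 and -0.26 with OsERF103. Among the factors of the study, OsAP37 was close to SNAC1 (0.97) and ZFP182 (0.98), OsERF103 to SNAC1 (0.98) and ZFP15 (0.97), and OsAP59 to OsbHLH148 (0.93). These are the closest of the list, and OsAP37 had r = -0.18 with OsWRKY45 and -0.14 with OsNAC5. The study drew the list and these members from the same module, built on correlation in libraries that include those of WT and erf71. A high r is thus in part built in and is only a description. The signs of SNAC1, ZFP182, ZFP15 and OsbHLH148 against OsERF71 turned without the Vandana libraries. With SNAC1 its r was -0.25 over 9 libraries and 0.33 over the 6 of WT and erf71. For ZFP182 these values were -0.19 and 0.46, for ZFP15 -0.12 and 0.40, and for OsbHLH148 -0.11 and 0.06. Not every factor of the list did so. OsNAC5 had 0.83 and 0.63, ONAC045 had 0.69 and 0.57, and OsWRKY45 turned the other way, from 0.19 to -0.36. Values among the members over the 6 libraries are not given, so the negative signs above hold only for the 9.

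Of 22677 genes with a mean of at least 1 FPKM, the 3 closest to OsERF71 were Os01g0933200 (r = 0.987), Os01g0700000 (0.973) and Os06g0672801 (0.971). Os01g0933200 stood at 40.5, 32.8 and 66.6 FPKM in WT, at 70.9, 56.7 and 114 FPKM in erf71, and at 51.8, 48.3 and 13.1 FPKM in Vandana. It shared with OsERF71 the higher level in erf71 at each time and the low level in Vandana at 6 HAT. Without the Vandana libraries its r was 0.998 over the 6 others, and it remained first. In all, 622 genes had r of at least 0.9 with OsERF71, against 250 for OsAP37, 123 for OsAP59, 221 for OsERF103 and 229 for OsEREBP1. These counts depend on the Vandana libraries: over the 6 others OsERF71 had 193 such genes, the fewest, against 1028, 456, 761 and 1755, and without only the Vandana libraries labelled 0 and 1 HAT it had 1338, against 456, 159, 313 and 475.

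The closest genes to OsAP37 were Os01g0845100 (r = 0.992), Os09g0408900 (0.990) and Os02g0740700 (0.983). Those to OsERF103 were Os02g0466400 (0.984), Os01g0845100 (0.982) and Os04g0244800 (0.981), so that Os01g0845100 was near both. OsAP59 was closest to Os02g0539200 (0.984), Os02g0548700 (0.983) and Os10g0520100 (0.982). OsEREBP1 was closest to Os03g0205000, Os03g0748700 and Os02g0750600, each with r = 0.988.

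**Figure D4:**
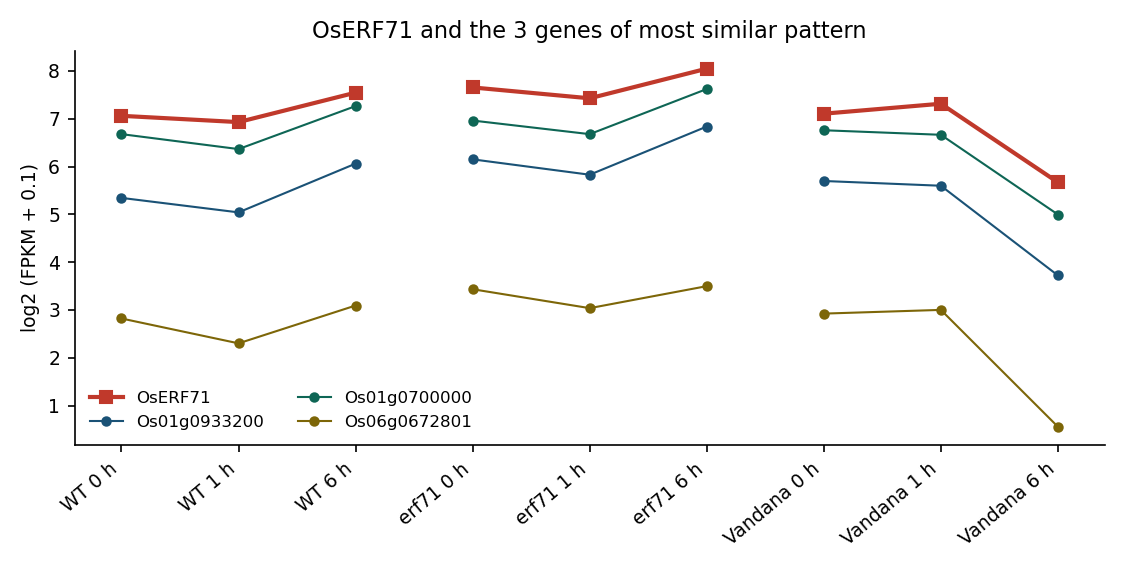
Log2(FPKM + 0.1) of OsERF71 and of the 3 genes with the most similar pattern across the 9 libraries, with lines joining the 3 time points of each plant. All 4 genes are higher in erf71 than in WT and drop in Vandana at 6 HAT, where OsERF71 has 50.8 FPKM and Os01g0933200 13.1 FPKM.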

How the data were processed

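RNA was extracted from whole seedlings and mRNA libraries were sequenced. The authors processed reads with CASAVA 1.8.2, mapped them to IRGSP-1.0 with TopHat2 and Bowtie, and deposited Cufflinks FPKM values per Rice Annotation Project gene, so the values are relative to library size and transcript length. The columns, named by plant and time, were taken as the mRNA libraries because the study's methods tie this table to them. The columns of lincRNA and miRNA tables were not used.

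Libraries were grouped by plant and time as labelled, in 15 contrasts. With 1 library each, log2((FPKM + 0.1) ratio) was given, and a gene was called at 2-fold or more if either library reached 1 FPKM. The share of all tested genes called stands beside the counts made with these settings. The 5 members and the lists were chosen with earlier results of these data known. Named were the members, the 3 genes most like each, the dehydration, leaf and root lists (chosen from general knowledge) and, added after the data were seen, 15 transcription factors and 23 OsERF71-linked genes of the study, which replaced a planned list of ERF family genes and a list of cinnamoyl-CoA reductase genes because the reference table did not match the gene IDs. For the same reason no sequence is shown. The calls were run on simulated data with little noise and changes set well past the threshold. Their recovery was thus fixed in advance, which checks the code but not the error between real libraries.

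Alternatives were a pseudocount of 1 FPKM, no minimum or a minimum of 5 FPKM, a 4-fold threshold, and scaling by median ratio, upper quartile or equal sum. Analyses used Python 3.11.15, numpy 2.4.6, pandas 2.3.3 and matplotlib 3.10.9.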

Additional observations from a re-analysis of the deposited data

Results flagged for a closer look

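In 5 instances a member moved at least 2-fold in opposite directions in the libraries of 2 plants over the same interval. With single libraries none of these differences was tested. The share of all genes that did so was not counted, so the 5 cannot be read as particular to these genes. OsERF103 also rose in WT (0 to 17.3 FPKM) and erf71 (0.405 to 3.73 FPKM) and fell in Vandana (2.76 to 0 FPKM) from 0 to 1 HAT, but with libraries listed at 0 no difference is given and it is not among the 5. From 0 to 1 HAT, the log2 change of OsAP37 was 3.41 higher in WT than in Vandana, and that of OsAP59 was 7.76 higher in WT and 4.94 higher in erf71 than in Vandana. All 3 rest on the Vandana libraries labelled 0 and 1 HAT, in which Dip1 also ran against the order of the other plants. From 1 to 6 HAT, the difference of OsAP59 was -3.24 for WT against erf71 and -5.28 for WT against Vandana. OsAP59 fell in WT from 193 FPKM, its highest value, so both differences share the WT library at 1 HAT.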

How the results depend on the processing

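No paired analysis was possible because each plant and time point had 1 library and the labels carry no replicate numbers. For the same reason no library could be left out within a group. The intended counts of ERF family genes were not run under any setting, since that list could not be made. No called change of a member turned its direction under any alternative. The counts below are of members only, and scaling moved the calls of all genes too. Rises in WT from 1 to 6 HAT went from 2859 to 3353 with median ratios and 3717 with upper quartiles. Falls in Vandana from 0 to 6 HAT went from 13609 to 9511 and 10320. Calls of all genes were not counted under the other thresholds, minimums or pseudocount, so shifts of members are not set apart from general ones. With a 4-fold threshold the genes called up were 0 in place of 1 in WT from 1 to 6 HAT, 1 in place of 2 in erf71 from 0 to 1 HAT, 1 in place of 3 in erf71 from 1 to 6 HAT, 1 in place of 2 in Vandana from 0 to 6 HAT and 0 in place of 2 in Vandana against WT at 6 HAT. Those called down were 0 in place of 1 in Vandana from 1 to 6 HAT, from 0 to 6 HAT and against WT at 6 HAT. Median ratio and upper quartile scaling gave 2 and 3 genes up in WT from 1 to 6 HAT, and 0 genes down in Vandana from 1 to 6 and from 0 to 6 HAT, where the gene lost was OsERF71. Smaller moves, from 3 to 2, occurred with the 4-fold threshold in WT and in Vandana from 0 to 1 HAT and in Vandana against WT at 0 and 1 HAT, and with a minimum of 5 FPKM in Vandana from 0 to 1 HAT and against WT at 0 HAT. A pseudocount of 1 left 2 of 3 up in erf71 from 1 to 6 HAT, and median ratio scaling gave 4 in place of 3 up from 0 to 6 HAT in WT and erf71 and from 1 to 6 HAT in Vandana. Against WT at 6 HAT, 3 in place of 2 were up in Vandana with median ratio and upper quartile scaling. Equal sum scaling gave 1 gene up and 2 down in Vandana against WT at 6 HAT. A minimum of 5 FPKM left 1 gene up in erf71 from 0 to 1 HAT, and with no minimum OsERF103 added 1 gene up in erf71 against WT at 0 HAT. Of the 3 genes most like each member, the 6 WT and erf71 libraries kept 1 for OsERF71 and 0 for the other members. Leaving out the Vandana libraries labelled 0 and 1 HAT kept 0 for OsERF71 and 1 for each other member, and a pseudocount of 1 kept 0 for OsERF103. In Vandana from 0 to 6 HAT, OsAP59 had a log2 change of -0.28, or 0.81 with median ratio scaling, and OsEREBP1 had -0.31, or 0.79. Depth is unknown, so no limit of detection is given.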
